A study of Homo sapiens with 12 samples.

Results

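RNA-seq counts of GFP-positive cells were compared with those of GFP-negative cells sorted from the same control cultures. The cultures came from WA09-Islet1-GFP, a wild-type human embryonic stem cell line in which GFP is expressed under the promoter of Islet1, a transcription factor of motor neurons. Cells were differentiated toward motor neurons with a 16-day protocol, frozen, thawed, regrown, given vehicle (DMSO) for 16 hours, lifted with trypsin and separated on GFP signal by FACS. The comparison took in every library labelled as a control, 6 of the 12 libraries of the series, with 3 GFP-positive and 3 GFP-negative libraries. Each replicate is an independent thaw, and the libraries that share a replicate number were taken as the sorted fractions of the same culture. Of 28278 gene symbols in the table, 15404 passed a filter on low counts and were tested, and 12874 were left out, of which 6872 had no count in any control library. All libraries share the line, the genotype, the vehicle and the sort, so nothing here separates a property of the cells from one of this line. The labels give no gate for the sort, and GFP protein can outlast or lag behind the messenger RNA of the gene whose promoter drives it.

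Motor neurons of the hindbrain and spinal cord arise from ventral progenitors that divide under sonic hedgehog, leave the cell cycle and switch on Islet1. Somatic motor neurons, which move skeletal muscle, make Islet1 together with MNX1 and LHX3 as they form. Branchial and visceral motor neurons of the hindbrain use Islet1 with PHOX2A and members of the T-box family. Both classes release acetylcholine, which is made by choline acetyltransferase (CHAT) and loaded into vesicles by the transporter SLC18A3. Islet1 is also made by sensory neurons and by some interneurons and non-neural cells, so GFP alone does not name a cell type.

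Total counts in genes ranged from 27036649 to 38347050 in the GFP-positive libraries and from 23414935 to 33861772 in the GFP-negative libraries. The third GFP-negative library stood apart. In it 143 genes were at 5 CPM (counts scaled to a common library size) or more and at over 10 times their level in every other control library, against 0, 0 and 1 gene in the GFP-positive libraries and 0 and 0 in the other GFP-negative libraries. These genes summed to 9120 CPM there, or 0.912% of its counts, and to between 18.7 and 47.9 CPM in the other libraries. The beta globin gene HBB was at 3690 CPM, the alpha globin gene HBA2 at 2140 CPM, the leukocyte phosphatase gene PTPRC at 29.8 CPM and the neutrophil gene S100A9 at 60.6 CPM in that library. Each result below was therefore also computed without replicate 3. Levels of genes are given as CPM scaled by the trimmed mean of M values (TMM), and differences as log2 fold changes of GFP-positive over GFP-negative cells with their standard error (SE). The SE was derived from edgeR's test, as the absolute log2 fold change divided by the square root of the F statistic. It is thus not an estimate separate from the p-value.

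The 6 marker genes followed the sort in every culture. ISL1, the gene whose promoter drives the reporter (chr5:51383448-51394730, plus strand, hg38), was at 62.8, 58.9 and 65.3 CPM in GFP-positive replicates 1 to 3 and at 2.52, 2.42 and 2.94 CPM in GFP-negative replicates 1 to 3. The fractions did not overlap, and the log2 fold change was 4.57 (SE 0.16, edgeR adjusted p = 1.5e-07). In GFP-negative cells ISL1 thus stood at 4.0%, 4.11% and 4.5% of its GFP-positive level in the 3 cultures. MNX1, a homeodomain factor of somatic motor neurons, was far lower in level, at 12.5, 11.6 and 8.44 CPM in GFP-positive cells and 4.93, 4.78 and 3.52 CPM in GFP-negative cells. Its difference was also smaller (log2 fold change 1.29, SE 0.19, adjusted p = 0.0003), and GFP-negative cells held 39.3% to 41.7% of the GFP-positive level.

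The cholinergic genes CHAT and SLC18A3 lie in the same locus, with SLC18A3 (chr10:49610310-49612720) inside CHAT (chr10:49609095-49667942) on the same strand, so reads from the shared stretch could have been assigned to either. CHAT was at 34.1, 49.8 and 45.5 CPM in GFP-positive cells and at 1.19, 5.08 and 4.57 CPM in GFP-negative cells (log2 fold change 3.72, SE 0.28, adjusted p = 3.3e-06). SLC18A3 was at 738, 870 and 643 CPM against 146, 140 and 121 CPM (log2 fold change 2.46, SE 0.13, adjusted p = 3.1e-07). Neither gene overlapped between the fractions. The residual level in GFP-negative cells was 3.49% to 10.2% for CHAT and 16.1% to 19.8% for SLC18A3.

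SOX2 and MKI67 ran the other way. SOX2, which maintains neural progenitors, was at 10.9, 11.5 and 16.8 CPM in GFP-positive cells and at 100, 118 and 115 CPM in GFP-negative cells (log2 fold change -3.11, SE 0.15, adjusted p = 2.5e-07). MKI67, a protein of dividing cells, was at 16.8, 12.3 and 25.1 CPM against 143, 171 and 205 CPM (log2 fold change -3.30, SE 0.17, adjusted p = 3e-07). The GFP-positive level was 9.73% to 14.7% of the GFP-negative level for SOX2 and 7.2% to 12.3% for MKI67. In these bulk libraries, fewer cells of a type and less RNA per cell cannot be told apart, so these shares are shares of RNA and not of cells.

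**Figure D1:**
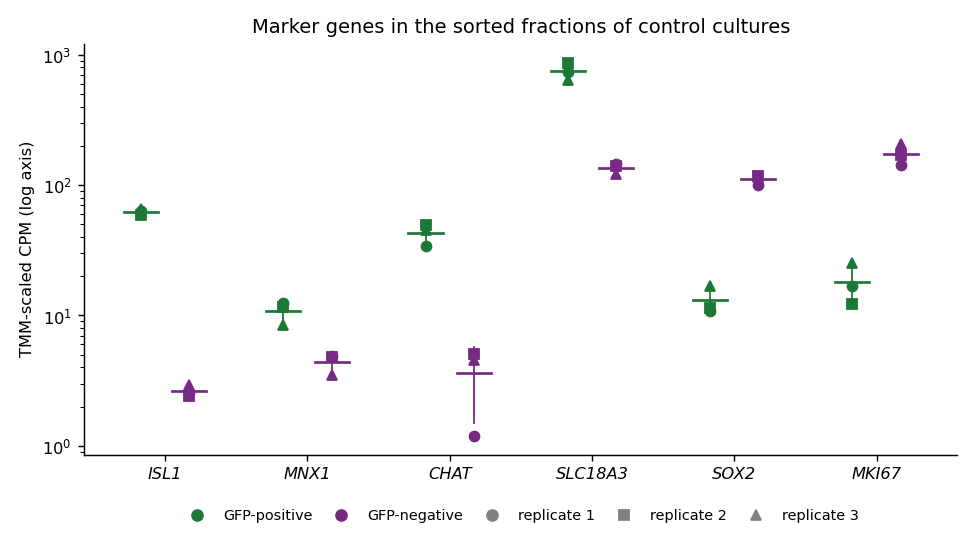
Levels of the 6 marker genes in each sorted library of the control cultures, in TMM-scaled CPM on a log axis. Points are libraries, horizontal bars the means of 3 libraries and vertical bars 1 SD on either side of the mean. ISL1, MNX1, CHAT and SLC18A3 are higher in all GFP-positive libraries (ISL1 between 58.9 and 65.3 CPM), and SOX2 and MKI67 are higher in all GFP-negative libraries (SOX2 between 100 and 118 CPM).

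Across all genes, 1262 were higher (8.19% of those tested) and 2371 lower (15.4%) in GFP-positive cells by edgeR's quasi-likelihood test with the replicate as a block (Benjamini-Hochberg adjusted p under 0.05, and 2-fold or more). With no limit on the fold change, 7948 genes passed (51.6%). The p-values measure the spread between these 3 cultures of a single line. The genes that fell did so by more: the median fold among lower genes was 4.04, and 1200 of them differed by at least 4-fold and 507 by at least 8-fold. Among higher genes the median fold was 2.51, with 171 at 4-fold or more and 45 at 8-fold or more. Of the higher genes 1212, and of the lower genes 2326, did not overlap between the fractions, against 52.4% of all genes tested. Leaving out replicate 3 gave 1663 higher (10.7%) and 2371 lower genes (15.2%) among 15551 tested, and 1189 of the 1262 and 2163 of the 2371 kept their call. Without the replicate block, 1151 genes were higher (7.47%) and 2355 lower (15.3%). Counts of called list members below are to be read beside the 8.19% higher and 15.4% lower over all genes tested.

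**Figure D2:**
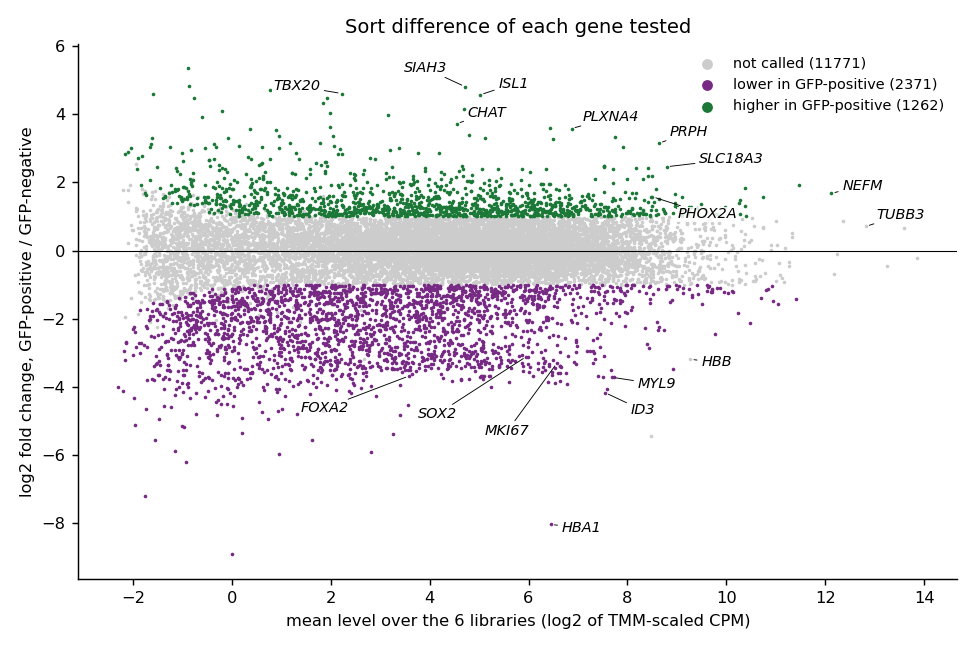
Sort difference of all 15404 genes tested, with the mean level over the 6 control libraries in log2 TMM-scaled CPM on the x axis and the log2 fold change of GFP-positive over GFP-negative cells on the y axis. Green points are the 1262 genes called higher, purple points the 2371 called lower and grey points those not called. The lower genes reach further from 0 than the higher ones at most levels, and HBA1 lies at -8.04 while HBB is not called.

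The 10 largest rises, among genes with a mean of at least 5 CPM in the higher fraction and no overlap, included SIAH3, TBX20, ISL1, LANCL3, TMC3, LOC642366, TBX3, HTR3B and CHAT, with log2 fold changes from 4.81 to 3.72. SIAH3, a relative of the SIAH ubiquitin ligases, rose more than ISL1 itself, from 1.65, 2.07 and 1.72 CPM in GFP-negative cells to 51.7, 51.2 and 49.5 CPM in GFP-positive cells (log2 fold change 4.81, SE 0.17, adjusted p = 1.5e-07). HTR3B, a subunit of the serotonin-gated ion channel, was at 14, 18.9 and 17.1 CPM against 0.496, 1.51 and 1.30 CPM (log2 fold change 3.98, SE 0.27). Neither gene overlapped between the fractions. Without replicate 3 the same rule gave 9 of the 10 genes, with MYOCD in place of TBX3.

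The 10 largest falls were less stable. By the same rule they were HBA1, LSP1, TNFRSF10C, MYO1F, ARHGDIB, ARHGAP9, VSIR, TNFRSF1B, FAM111A and FAM107A, with log2 fold changes from -8.04 to -4.18. HBA1 was at 0.496 and 0.59 CPM in GFP-negative replicates 1 and 2 and at 522 CPM in replicate 3, 885 times the higher of the others. Ratios of the same kind were between 6.44 and 68.9 for the 7 genes from LSP1 to TNFRSF1B, 1.71 for FAM111A and 0.877 for FAM107A. Without replicate 3, HBA1 (log2 fold change -0.45, adjusted p = 0.59), LSP1 (-1.72, adjusted p = 0.053) and MYO1F (-1.24, adjusted p = 0.14) lost their call, and the other 7 were between -2.42 and -4.39. Of the 143 genes that stood out in the third GFP-negative library, 34 were tested and 21 were called lower. In the fit without replicate 3, 9 of the 143 were called lower.

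**Figure D3:**
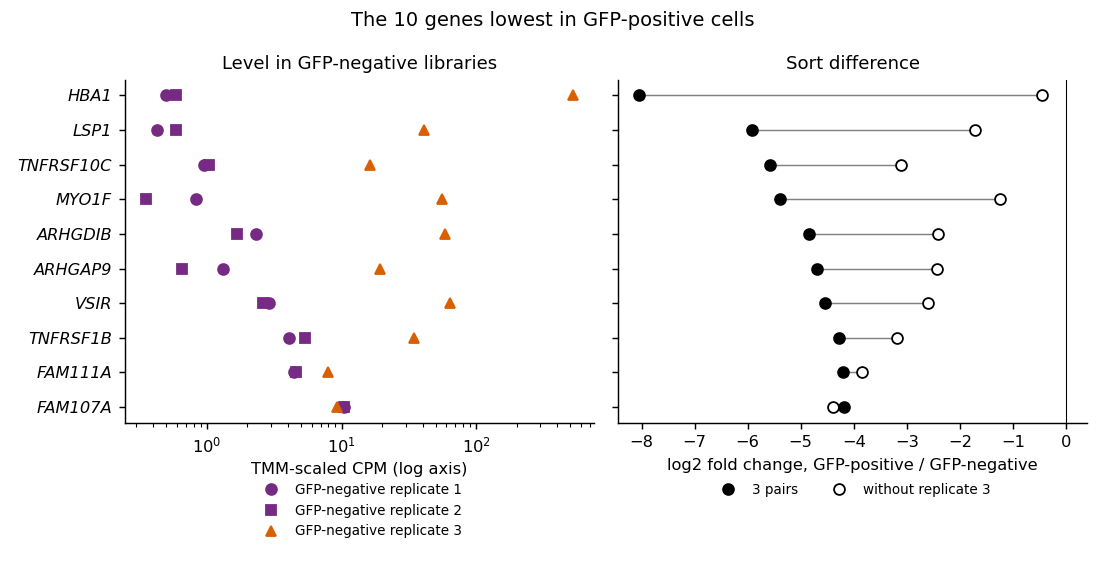
The 10 genes with the largest fall in GFP-positive cells. The left panel gives their TMM-scaled CPM in each GFP-negative library on a log axis, and the right panel the log2 fold change of GFP-positive over GFP-negative cells from all 3 pairs (filled) and without replicate 3 (open). HBA1 is at 522 CPM in the third library and below 1 CPM in the others, and its fold change moves from -8.04 to -0.45, while FAM107A stays at -4.18 and -4.39.

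Chosen by that rule without replicate 3, the largest falls were TFPI2, FAM107A, GJA4, ID3, FABP7, ID1, EVA1B, VEPH1, NID2 and FOXA2, between -4.43 and -4.06, so that 1 of the 10 genes was shared. This list was drawn up after the data were seen. ID3 and ID1 block basic helix-loop-helix factors in progenitors. ID3 was at 17.9, 22 and 19 CPM in GFP-positive cells and at 387, 386 and 292 CPM in GFP-negative cells (log2 fold change -4.17, SE 0.14, adjusted p = 1.5e-07 with all pairs). FABP7, a fatty acid binding protein of radial glia, was at 11.5, 9.16 and 13.5 CPM against 242, 147 and 132 CPM (log2 fold change -3.89, SE 0.20). For both genes every GFP-negative library was above every GFP-positive one.

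Compared per kilobase of transcript, the most abundant genes called higher in GFP-positive cells were NEFM at 2080 CPM per kilobase, GAP43 at 1380, STMN2 at 1340, SNCG at 1310 and NEFL at 1260. NEFM and NEFL are neurofilament subunits, GAP43 a growth cone protein, STMN2 a regulator of axonal microtubules and SNCG a synuclein. SNCG differed by just over 2-fold (log2 fold change 1.01), and its call was lost without the replicate block (adjusted p = 0.0029, under 2-fold). The most abundant genes called lower were RPS2 at 3080, RPL35 at 2570, RPL8 at 2460, RPS15 at 2320 and RPLP0 at 2170 CPM per kilobase in GFP-negative cells, all of them subunits of the cytosolic ribosome.

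Among 20 motor neuron transcription factors, all tested, 7 rose and 4 fell, beside 8.19% and 15.4% of all genes. Their median log2 fold change was 0.41 against 0.00 over all genes. ISL2, the paralog of ISL1, was at 8.4, 9.27 and 7.32 CPM against 3.04, 2.18 and 2.43 CPM (log2 fold change 1.71, SE 0.23, adjusted p = 0.00019). EBF1, a factor of newborn neurons, was at 85.0, 64.6 and 92.6 CPM against 20.4, 21.1 and 29.5 CPM (1.77, SE 0.14). ONECUT3, which with its paralogs acts in early motor neurons, was at 361, 318 and 391 CPM against 155, 177 and 151 CPM (1.15, SE 0.13). These genes did not overlap between the fractions. ONECUT1 and ESRRG did overlap, and their calls (1.07 and 1.23) were lost without the block (adjusted p = 0.37 and 0.097).

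LHX3, the LIM factor that pairs with ISL1 in somatic motor neurons, was at 1.42, 1.80 and 2.23 CPM in GFP-positive cells and at 5.53, 4.55 and 3.48 CPM in GFP-negative cells. It was thus among the 4 factors that fell (log2 fold change -1.31, SE 0.31, adjusted p = 0.0057), with EBF2 at -1.45, NEUROD1 at -1.12 and MECOM at -1.92. LHX3 was just under 2-fold without replicate 1 (-0.99) and NEUROD1 without replicate 2 (-0.96). LHX4, the close relative of LHX3, was at 42.6, 41.0 and 39.2 CPM against 34.8, 34.1 and 34.1 CPM (0.25, SE 0.12, adjusted p = 0.11), higher in every GFP-positive library but past neither limit. FOXP1, a factor of limb-innervating columns, was at 7.97, 6.73 and 9.69 CPM against 11.8, 9.12 and 12.5 CPM (-0.46, adjusted p = 0.047), with overlap between the fractions.

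Branchial and visceral motor neuron factors moved in both directions. Of 10 listed genes 8 were tested, 5 rose and 3 fell, and the median was 1.84. With all 10 genes fitted it was 0.43 without a filter and 0.45 by DESeq2. PHOX2A, a homeodomain factor of branchial and visceral motor neurons, was at 565, 627 and 441 CPM in GFP-positive cells and at 191, 190 and 161 CPM in GFP-negative cells (1.58, SE 0.12, adjusted p = 3.5e-06). Every GFP-positive library was well above every GFP-negative one.

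The T-box genes of the list were among the largest changes of the whole comparison. TBX20, which marks hindbrain motor neurons, was at 5.14, 11.7 and 9.85 CPM in GFP-positive cells and at 0, 0.384 and 0.923 CPM in GFP-negative cells (4.61, SE 0.53, adjusted p = 6.2e-05). TBX2 was at 48.8, 54.3 and 49.2 CPM against 5.3, 4.19 and 5.16 CPM (3.38, SE 0.17), and TBX3 at 6.09, 8.12 and 8.14 CPM against 0.563, 0.679 and 0.126 CPM (4.03, SE 0.42). In all 3 genes the lowest GFP-positive library was several times above the highest GFP-negative one.

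The other members of this list ran against it. GATA2 and GATA3, zinc finger factors shared by visceral motor neurons and a class of ventral interneurons, fell together. GATA2 was at 1.42, 1.34 and 1.31 CPM against 14, 14.6 and 13.7 CPM (-3.38, SE 0.21, adjusted p = 9.9e-07), and GATA3 at 0.496, 0.219 and 0.366 CPM against 2.55, 3.22 and 4.07 CPM (-3.20, SE 0.41). NKX6-3 fell as well (-1.52, SE 0.22). HMX2 and HMX3 were below 1 CPM in every library and were not tested.

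**Figure D4:**
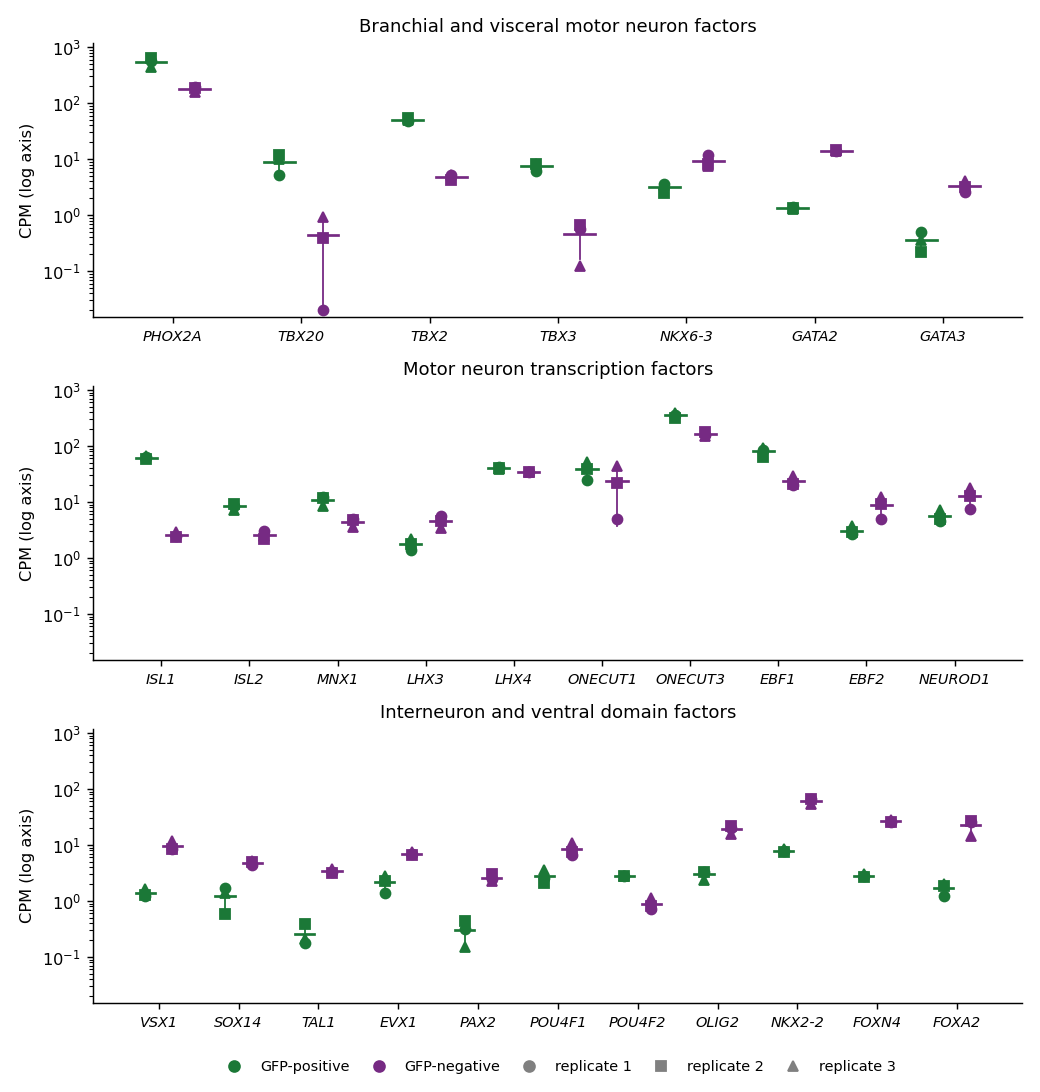
Levels of transcription factors in each sorted control library, in TMM-scaled CPM on log axes, with bars for the mean of 3 libraries and 1 SD on either side. A value of 0 (TBX20 in GFP-negative replicate 1) is drawn at the lower edge of its panel. PHOX2A reaches 441 to 627 CPM in GFP-positive cells and ISL1 58.9 to 65.3 CPM, while LHX3, GATA2, VSX1, TAL1, OLIG2 and FOXA2 are higher in GFP-negative cells.

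Factors of spinal and hindbrain interneurons were mostly on the GFP-negative side. Of 31 listed genes 17 were tested, 1 rose and 12 fell, with a median of -1.86. VSX1, which is made in the V2 lineage, was at 1.24, 1.29 and 1.62 CPM against 8.64, 8.41 and 11.9 CPM (-2.79, SE 0.23). TAL1 and SOX14, expressed in the V2b and V2 lineages, were at -3.71 and -2.09 on the log2 scale. EVX1, a V0 factor, was at -1.73 and PAX2 at -3.13. The member that rose was POU4F2, a POU factor best known from retinal ganglion cells, at 2.83, 2.76 and 2.77 CPM against 0.728, 0.826 and 1.13 CPM (1.66, SE 0.33, adjusted p = 0.002).

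The domains of the ventral neural tube behaved unevenly. Of 14 factors tested 8 fell and none of the 14 was called higher, with a median of -1.37. OLIG2, which specifies the motor neuron progenitor domain, was at 3.26, 3.28 and 2.41 CPM in GFP-positive cells and at 20.2, 22.2 and 15.9 CPM in GFP-negative cells (-2.70, SE 0.18, adjusted p = 1.4e-06). NKX2-2, of the neighbouring domain that also yields visceral motor neurons, was at 7.65, 7.52 and 8.35 CPM against 65.7, 65.4 and 54.0 CPM (-2.97, SE 0.15). FOXN4 (-3.22), DBX2 (-3.99) and DBX1 (-2.01) fell with them. NKX6-1, which acts in ventral progenitors and stays on in motor neurons, was at 285, 328 and 321 CPM against 154, 185 and 155 CPM (0.92, SE 0.11), higher without overlap but under 2-fold (1.01 without replicate 2), and it was singled out after its values were seen. Of 8 dorsal factors tested among 14 listed, 1 rose and 6 fell (median -2.13), among them OLIG3 (-3.76) and MSX1 (-1.98), and the 1 that rose, PAX7 (2.01), stayed at 1.13 CPM or less.

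Floor plate genes, whose cells line the ventral midline and secrete sonic hedgehog, fell in 7 of the 9 tested (11 listed), with a median of -2.92. FOXA2 was at 1.24, 1.83 and 2.01 CPM in GFP-positive cells and at 25.5, 27.2 and 14.3 CPM in GFP-negative cells (-3.68, SE 0.28, adjusted p = 4e-06). SHH was at 0.992, 0.875 and 0.396 CPM against 11.6, 8.2 and 4.32 CPM (-3.39, SE 0.26), and the midline attractant NTN1 at 14.7, 15.3 and 14.9 CPM against 105, 119 and 83.9 CPM (-2.76, SE 0.14). Within GFP-negative cells SHH and FOXA2 were lowest in replicate 3.

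Of 21 cholinergic genes 17 were tested, 8 rose and 1 fell, with a median of 0.73. The choline transporter SLC5A7 was at 278, 307 and 347 CPM against 33.2, 58.5 and 85.0 CPM (2.49, SE 0.18, adjusted p = 3.1e-06), and acetylcholinesterase, ACHE, at 225, 266 and 211 CPM against 90.8, 98.8 and 83 CPM (1.36, SE 0.11). Of the nicotinic receptor genes, the subunit CHRNA3 was at 118, 131 and 126 CPM against 28.8, 32.9 and 34.9 CPM (1.96, SE 0.12), and CHRNB4 (1.94), CHRNA7 (2.05) and CHRNA4 (1.31) rose too. The muscarinic receptor gene CHRM4 fell (-1.18, adjusted p = 0.012) and lost that call without replicate 3, where it was under 2-fold (-0.73).

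Genes of other transmitters split. Of 9 monoamine genes tested among 12 listed, 3 rose and 1 fell (median 0.79), beside 8.19% and 15.4% of all genes. Tyrosine hydroxylase, TH, was at 42.7, 55.5 and 34.9 CPM against 14.7, 13.8 and 10.9 CPM (1.74, SE 0.15, adjusted p = 9e-06), dopamine beta-hydroxylase, DBH, at 88.1, 113 and 80.6 CPM against 27.8, 31.9 and 27.6 CPM (1.68, SE 0.12), and the vesicular transporter SLC18A2 at 4.71, 6.92 and 6.04 CPM against 0.794, 0.915 and 1.47 CPM (2.50, SE 0.29). FEV, a factor of serotonin neurons, fell from 2.25, 1.27 and 1.17 CPM to at most 0.152 CPM (-4.38, SE 0.70). Of 5 inhibitory genes tested (6 listed) 4 fell (median -2.27), among them the GABA synthesis genes GAD1 (-2.90) and GAD2 (-3.38) and the vesicular transporter SLC32A1 (-2.27), all at or below 2.80 CPM. The list's summed level overlapped, at 83.7 to 112 CPM in GFP-positive and 82.8 to 123 CPM in GFP-negative cells. GAD1, GAD2 and SLC32A1 made up little of that sum, so its overlap does not bear on their fall. The 1 tested member of the list that was not called had a log2 fold change of -0.08. The call of SLC6A5, a glycine transporter, was lost without replicate 3. SLC17A7, a vesicular glutamate transporter, rose (2.69, SE 0.46) and SLC17A6 did not pass (-0.86, adjusted p = 0.16), both at 3.04 CPM or less.

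Pan-neuronal genes rose in 21 of 28, all tested, and none fell (median 1.26), but they were far from absent in GFP-negative cells. Summed, the list took 36100 to 37700 CPM of the GFP-positive libraries and 15000 to 15300 CPM of the GFP-negative ones. PRPH, an intermediate filament protein of neurons that project out of the central nervous system, rose the most, from 90.3, 84.7 and 64.0 CPM to 755, 880 and 518 CPM (3.15, SE 0.13, adjusted p = 1.6e-07). SYT4, a synaptotagmin, was at 481, 390 and 577 CPM against 71.9, 87.7 and 114 CPM (2.41, SE 0.14). TUBB3, the neuronal tubulin often used as a marker, was at 8460, 11100 and 7510 CPM against 5550, 5680 and 5090 CPM (0.71, SE 0.12, adjusted p = 0.00096), under 2-fold and named after its values were seen.

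Neurofilaments and microtubule-associated proteins rose in 14 of 29 and fell in 2 (median 0.88), and the 2 that fell were TUBB6 (-2.13) and TUBB4B (-1.37). Axonal kinesin and dynein genes rose in 8 of 25 (median 0.76), led by the dynein chain DYNC1I1 (1.77, SE 0.15) and the kinesin KIF5A (1.58, SE 0.12), the latter at 457, 523 and 613 CPM against 140, 193 and 205 CPM. Synaptic vesicle and release genes rose in 21 of 36 tested (median 1.03) and in 26 of 36 without replicate 3. They included the synuclein SNCB (2.12, SE 0.14), dynamin 3, DNM3 (2.35, SE 0.24), and synapsin 3, SYN3 (1.95, SE 0.15). No member of the kinesin and synaptic lists was called lower.

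Voltage-gated channels rose in 22 of 34 tested (38 listed) and fell in none, with a median of 1.10. Among the rises were the sodium channel SCN9A, at 29.8, 30.4 and 35.3 CPM against 3.24, 3.63 and 6.84 CPM (2.87, SE 0.20, adjusted p = 2.1e-06), and the potassium channels KCNH7 (2.68, SE 0.46) and KCND2 (2.60, SE 0.48). Without replicate 3, 26 rose and 1 fell. Of 30 transmitter receptor genes tested, 12 rose and 3 fell (median 0.82), beside 8.19% and 15.4% of all genes. GRM7, a metabotropic glutamate receptor, was at 19.7, 17.2 and 18.5 CPM against 1.65, 2.21 and 3.27 CPM (3.00, SE 0.24, adjusted p = 4.7e-06), and GLRA2, a glycine receptor subunit, at 61.6, 42.7 and 71.7 CPM against 13.4, 17.7 and 23.9 CPM (1.68, SE 0.18). Receptor genes that fell were GRIN2B (-2.40, SE 0.28), GRIA1 (-1.25, SE 0.13) and HTR1D (-2.45, SE 0.52).

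Axon guidance receptors divided between the fractions, with 12 of 34 tested higher, 7 lower and a median of 0.63. Over all genes tested, 8.19% were higher and 15.4% lower. MET, the receptor for hepatocyte growth factor that also acts on motor axons, was at 148, 137 and 193 CPM against 9.47, 13.2 and 17.6 CPM (3.59, SE 0.15, adjusted p = 1.6e-07). PLXNA4, a semaphorin co-receptor, was at 188, 231 and 226 CPM against 12.5, 22.1 and 20.6 CPM (3.58, SE 0.14). RET, the receptor for the GDNF family, was at 310, 340 and 293 CPM against 49.0, 65.5 and 54.1 CPM (2.49, SE 0.12). In these 3 genes the GFP-positive libraries were several times above every GFP-negative library. UNC5C, a netrin receptor that mediates repulsion, rose by 2.40 and EPHA5 by 3.16 on the log2 scale. On the other side were EPHB4, at 5.92, 6.40 and 6.65 CPM against 71.5, 77.0 and 63.9 CPM (-3.48, SE 0.15), EPHA2 (-2.98), ACKR3 (-2.35) and PLXND1 (-2.14).

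Guidance ligands rose in 5 of 33 and fell in 7 (median 0.41, and 0.23 without replicate 1), beside 8.19% and 15.4% of all genes, and 8 rose without replicate 3. SLIT3, a repellent of the SLIT family, was at 547, 611 and 624 CPM against 116, 148 and 130 CPM (2.18, SE 0.12, adjusted p = 4.5e-07), and the semaphorins SEMA3D (2.96) and SEMA3C (2.40) rose with it, while NTN1, EFNA4 (-3.25) and SEMA5B (-2.20) fell. Among 18 neurotrophic factor receptors tested, 3 rose and 4 fell (median 0.05, -0.02 without replicate 1 and 0.24 without replicate 3). Besides RET and MET, GFRA2 rose (1.16), and FGFR3, a growth factor receptor of progenitors, was at 37.8, 37.2 and 40.8 CPM against 322, 376 and 297 CPM (-3.10, SE 0.13), with NTRK2 at -2.52 and FGFR2 at -2.26.

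Neural progenitor genes fell in 18 of 23 tested and rose in none (median -2.70). HES1, a target of Notch, was at 2.66, 2.54 and 2.59 CPM against 33.1, 25.8 and 23.6 CPM (-3.39, SE 0.18, adjusted p = 3.8e-07), HMGA2 fell by 3.04 and SOX3 by 3.00 on the log2 scale. The list's summed level was 3490 to 3720 CPM in GFP-positive cells and 7930 to 9880 CPM in GFP-negative cells. TTYH1 overlapped between the fractions, and its call (-1.86) was lost without the block (adjusted p = 0.15). Radial glia adhesion and matrix genes fell in 17 of 26 (median -1.75), led by CD44 (-3.89), GPC4 (-3.51) and SDC4 (-3.34), and CD44 was highest in the third GFP-negative library.

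Signalling pathways of progenitors were lower as well. Notch genes fell in 10 of 21 tested (median -0.97), hedgehog genes in 7 of 13 (median -1.0), and Wnt and BMP genes in 18 of 26 with 1 higher (median -2.32). Over all genes tested, 15.4% were lower and 8.19% higher. The receptors NOTCH1, at 24.7, 29.4 and 28.8 CPM against 178, 253 and 233 CPM (-2.99, SE 0.12, adjusted p = 1.5e-07), and NOTCH3 (-3.30, SE 0.12) fell along with the Notch target NRARP (-3.22). GLI1, a direct target of hedgehog signalling, was at 0.921, 0.793 and 0.793 CPM against 15.3, 13.5 and 11.1 CPM (-3.98, SE 0.23), and the receptor component SMO fell by 2.78. HHIP, a hedgehog antagonist, was at the limit (-1.0) and lost its call without replicate 3 (-0.94). The Wnt genes WNT7B (-3.84) and LEF1 (-4.75) were among the largest falls, and RSPO2 was the member called higher (1.93, adjusted p = 0.021), a call lost without replicate 3 (1.43, adjusted p = 0.084).

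Retinoic acid genes had 2 of 13 higher and 2 lower (median 0.07), beside 8.19% and 15.4% of all genes. RXRG, a retinoid X receptor, was at 391, 486 and 356 CPM against 107, 92.4 and 85.2 CPM (2.11, SE 0.13, adjusted p = 1.1e-06), and STRA6, a retinol importer, at 164, 175 and 150 CPM against 63.5, 65.6 and 54.4 CPM (1.41, SE 0.11). HOX genes, which mark position along the body axis, had 0 higher and 3 lower of 20 tested (30 listed) and a median of 0.24, beside 15.4% of all genes lower. Their summed level was 1410 to 1540 CPM in GFP-positive and 987 to 1130 CPM in GFP-negative cells, without overlap. The 3 that fell were HOXA7 (-1.91), HOXB1 (-1.27, and -0.96 without replicate 1) and HOXC5 (-1.95). HOXB3 was at 343, 353 and 348 CPM against 138, 214 and 220 CPM (0.90, SE 0.14), under 2-fold with all pairs and called higher without replicate 3 (1.06). HOXA10, HOXC10 and HOXD10 had at most 0.0354 CPM in any control library. HOXB3 and these 3 genes were named after their values were seen.

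Nearly all cell cycle genes listed for mitosis and replication were lower in GFP-positive cells. Mitosis genes fell in 42 of 43 and rose in none, with a median of -3.12, and all 43 were lower in every GFP-positive library than in any GFP-negative one, against 52.4% of all genes without overlap. Their summed level was 417 to 546 CPM in GFP-positive cells and 3730 to 4040 CPM in GFP-negative cells. CDC20, an activator of the anaphase-promoting complex, was at 21.1, 27.7 and 24.1 CPM against 319, 309 and 310 CPM (-3.69, SE 0.13, adjusted p = 1.5e-07). BIRC5, of the chromosomal passenger complex, was at 23.3, 26.6 and 26.0 CPM against 405, 304 and 304 CPM (-3.72, SE 0.15), and MYBL2, a transcription factor that acts with the MuvB complex, at 24.4, 34.6 and 31.3 CPM against 396, 385 and 401 CPM (-3.72, SE 0.14). BUB3, which did not reach 2-fold (-0.59, SE 0.11), was the exception and was named after its value was seen.

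DNA replication genes fell in 38 of 40 and rose in none, by a smaller median of -2.03, and in 37 of 40 without replicate 3. TK1, a thymidine kinase, was at 8.08, 13 and 11.6 CPM against 183, 150 and 142 CPM (-3.87, SE 0.19, adjusted p = 2.9e-07). CDT1, which licenses replication origins, was at 11.7, 14.1 and 10.3 CPM against 157, 146 and 124 CPM (-3.57, SE 0.13). Regulators of cell cycle entry and exit fell in 16 of 28 and rose in 1 (median -1.56). Cyclin D1, CCND1, was at 38.8, 27.4 and 33.9 CPM against 297, 238 and 237 CPM (-2.95, SE 0.12) and fell along with CCNE2 (-3.86) and E2F2 (-3.38). The member that rose was CDKN2D, an inhibitor of cyclin D kinases kept on in neurons, at 126, 119 and 107 CPM against 64.9, 48.6 and 44.1 CPM (1.17, SE 0.12, adjusted p = 2.7e-05).

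The promoters of these genes are shown because mitosis and replication genes are known for different elements near the start site. The 120 bases before the RefSeq start are given for 4 mitosis genes and 3 replication genes, 5′ to 3′ on the strand of the gene (GRCh38.p14). Capitals mark the cell cycle genes homology region (CHR, TTTGAA), the CCAAT box (CCAAT) and an E2F site (GGCGGGAA), each searched on both strands. The windows are MKI67, chr10:128126424-128126543, minus strand; CCNB2, chr15:59105026-59105145, plus strand; PLK1, chr16:23678769-23678888, plus strand; CDC20, chr1:43358861-43358980, plus strand; PCNA, chr20:5126623-5126742, minus strand; GINS2, chr16:85688955-85689074, minus strand; and CDT1, chr16:88803669-88803788, plus strand.
MKI67: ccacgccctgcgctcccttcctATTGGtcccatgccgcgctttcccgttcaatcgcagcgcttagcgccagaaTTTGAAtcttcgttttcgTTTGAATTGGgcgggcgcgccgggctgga
CCNB2: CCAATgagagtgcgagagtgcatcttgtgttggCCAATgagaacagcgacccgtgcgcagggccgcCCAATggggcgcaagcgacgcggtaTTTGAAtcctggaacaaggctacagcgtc
PLK1: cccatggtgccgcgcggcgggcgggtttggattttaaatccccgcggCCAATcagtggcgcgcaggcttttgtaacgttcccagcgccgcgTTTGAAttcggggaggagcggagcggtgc
CDC20: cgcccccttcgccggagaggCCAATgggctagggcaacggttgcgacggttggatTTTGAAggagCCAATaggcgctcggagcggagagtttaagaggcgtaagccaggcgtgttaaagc
PCNA: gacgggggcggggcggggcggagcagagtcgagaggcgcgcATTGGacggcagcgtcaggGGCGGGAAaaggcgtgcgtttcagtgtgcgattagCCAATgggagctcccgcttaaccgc
GINS2: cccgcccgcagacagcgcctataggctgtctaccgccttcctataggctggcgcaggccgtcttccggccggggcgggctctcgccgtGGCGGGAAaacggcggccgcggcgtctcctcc
CDT1: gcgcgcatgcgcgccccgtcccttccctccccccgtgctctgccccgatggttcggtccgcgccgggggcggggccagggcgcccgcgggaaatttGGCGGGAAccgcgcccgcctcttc

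Within 100 bases before the start, the CHR letters were found in 13 of 35 mitosis promoters that had an entry (37.1%), in 0 of 34 replication promoters, in 4.64% of all 27305 promoters of the RefSeq set and in 2.46% of those of genes tested. CCAAT was found in 54.3% of mitosis promoters, 44.1% of replication promoters and 18.7% of all promoters, and CHR together with CCAAT in 22.9% of mitosis promoters and 0.916% of all. In MKI67 the second TTTGAA shares 1 base with the CCAAT box that follows it on the other strand. The E2F letters were in 6 of 34 replication promoters (17.6%), in 2.86% of mitosis promoters and in 1.26% of all. Promoters of all lower genes held the CHR letters in 4.3% and those of higher genes in 3.58%. The 7 genes printed were chosen with their motifs known, and a match is a description of letters and not of a bound site.

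**Figure D5:**
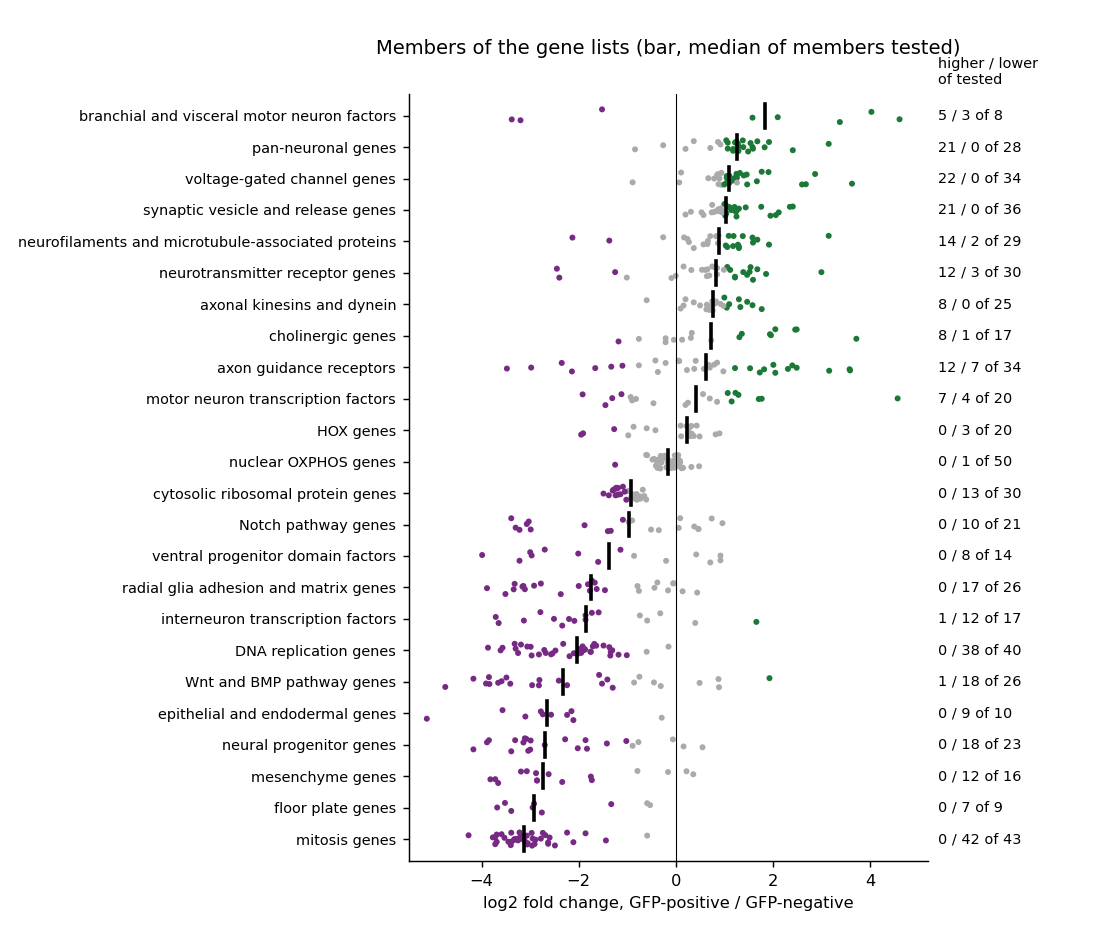
Log2 fold change of GFP-positive over GFP-negative cells for the tested members of 24 gene lists, ordered by list median. Each point is a gene, green if called higher, purple if called lower and grey if neither, the black bar is the median, and the counts on the right are genes higher and lower of those tested. Of the lists drawn, branchial and visceral motor neuron factors have the highest median (1.84, from 8 of 10 genes) and mitosis genes the lowest (-3.12), while nuclear OXPHOS genes gather near 0 with 1 of 50 called.

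Markers of cells outside the nervous system lay mostly on the GFP-negative side. Mesenchyme genes fell in 12 of 16 tested (22 listed, median -2.74), and their summed level was 639 to 715 CPM in GFP-positive cells and 1870 to 2030 CPM in GFP-negative cells. MYL9, a smooth muscle myosin light chain, was at 27.2, 30.0 and 28.5 CPM against 495, 354 and 306 CPM (-3.72, SE 0.17, adjusted p = 2.1e-07), and TAGLN at 28.7, 33.4 and 33.8 CPM against 343, 265 and 273 CPM (-3.19, SE 0.15). From the same list, DCN, POSTN and PRRX1 were at 0.354 CPM or less in every library. They were picked from outside the naming rule and do not stand for the list, since other fibroblast genes were among the 12 that fell. Epithelial genes fell in 9 of 10 tested (14 listed, median -2.66), among them FOXJ1, a factor of ciliated cells that is also made in the floor plate, at 10.1, 9.65 and 10.2 CPM against 135, 129 and 95.1 CPM (-3.57, SE 0.15). Endothelial genes fell in all 5 tested of 9 listed (median -2.00), with a summed level of at most 47.1 CPM, and 3 fell without replicate 2.

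Glial genes fell in 4 of 6 tested (13 listed, median -2.71, and -1.64 without replicate 1), among them the gap junction gene GJA1, at 8.82, 6.73 and 12.8 CPM against 69.9, 94.5 and 104 CPM (-3.27, SE 0.18, adjusted p = 5e-07), whereas GFAP, AQP4, SOX10 and MOG stayed at 0.587 CPM or less. Among 4 neural crest genes tested of 10 listed, 1 rose and EDNRB (-3.32) and PMP22 (-2.65) fell. Sensory and placodal genes had 3 of 11 higher and 5 lower (median -0.86, -0.31 without replicate 2 and -1.25 without replicate 3), beside 8.19% and 15.4% of all genes. Besides SCN9A, the sensory factors DRGX, at 33.2, 33.7 and 34.6 CPM against 8.08, 10.4 and 6.88 CPM (2.02, SE 0.17, adjusted p = 7.4e-06), and RUNX1 (1.72, SE 0.14) rose, and PIEZO2 (-2.45) fell. RUNX3 fell as well (-3.86), with 15.4 CPM in the third GFP-negative library against 2.28 and 2.07 CPM in the others. Pluripotency genes had 2 of 5 lower (10 listed), DPPA4 (-3.10) and L1TD1 (-1.98), the latter losing its call without replicate 3, and POU5F1, NANOG and TDGF1 had no count in any control library. Of 22 blood genes 3 were tested, HBA1, HBA2 and HBB, and 1, HBA1, was called lower, against 3 without the block and 0 without replicate 3. Muscle genes fell in 3 of 7 tested (12 listed, median -0.37, and -1.04 and -0.83 without replicate 1 or 3), the largest fall being in ACTC1 (-2.63).

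For genes of the general cell machinery, list medians lay between -0.92 and 0.61. Nuclear OXPHOS genes had 0 higher and 1 lower of 50 (median -0.17, and -0.02 without replicate 1). Cytosolic ribosomal protein genes fell in 13 of 30 (median -0.92), and 29 of the 30 did not overlap between the fractions, against 52.4% of all genes, with RPS2 at 969, 1190 and 937 CPM against 3470, 2680 and 2590 CPM (-1.49, SE 0.15, adjusted p = 2.1e-05). Their summed level was 17900 to 23700 CPM in GFP-positive cells and 34500 to 53100 CPM in GFP-negative cells, and RPL8 was among the calls lost without replicate 3. Glycolysis genes had 1 higher and 5 lower of 23 (median -0.37), beside 8.19% and 15.4% of all genes. Without replicate 3 they had 3 higher and 4 lower (median -0.08). The enolase genes moved apart: the neuronal ENO2 was at 801, 1060 and 815 CPM against 337, 382 and 369 CPM (1.29, SE 0.12, adjusted p = 1.8e-05), and ENO1 at 967, 1330 and 931 CPM against 3190, 3080 and 3200 CPM (-1.57, SE 0.14). The glucose transporter SLC2A1 fell by 2.26 on the log2 scale. Cholesterol synthesis genes had 3 higher and 1 lower of 22 (median 0.61), beside the same 8.19% and 15.4%. LSS lost its call without the block (adjusted p = 0.052).

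Splicing and chromatin regulators of neurons rose in 8 of 19 and fell in none (median 0.80), led by the splicing regulators CELF6 (1.62, SE 0.14) and RBFOX2 (1.56, SE 0.20). Of their progenitor counterparts 4 of 10 fell (median -0.64). PTBP1, the splicing repressor that neurons shut off, was at 135, 153 and 139 CPM against 683, 736 and 713 CPM (-2.32, SE 0.12, adjusted p = 3e-07), and HMGB2 fell by 2.62. Immediate early and dissociation stress genes had 2 of 21 higher and 6 lower (median -0.65, and -0.2 without replicate 3), beside 8.19% and 15.4% of all genes. The largest fall was in FOSL1 (-3.41), while FOS was at 29.1, 34.6 and 16.6 CPM against 36.3, 39.0 and 21.1 CPM (-0.28, adjusted p = 0.11) and was named after its values were seen. Unfolded protein response genes fell in 4 of 18 (median -0.16, and -0.05 without replicate 1), with 2 higher and 5 lower without replicate 3, and p53 and apoptosis genes fell in 5 of 16 tested (median -0.53), beside 15.4% of all genes. Of 33 genes linked to amyotrophic lateral sclerosis, 4 were higher (KIF5A, STMN2, OPTN and UNC13A) and 5 lower (ANXA11, PFN1, CCNF, ERBB4 and ANG), with a median of 0.09 (-0.04 without replicate 1 and 0.33 without replicate 3), beside 8.19% and 15.4% of all genes. ANG lost its call without replicate 1 or 2 (adjusted p = 0.18 and 0.19) and ERBB4 without replicate 2 (adjusted p = 0.19). ANXA11 moved the most, at 11.6, 14.1 and 10.9 CPM against 86.2, 77.6 and 91.6 CPM (-2.80, SE 0.15, adjusted p = 4.3e-07). Long noncoding RNAs of the list fell in 3 of 15 tested (median -0.22), beside 15.4% of all genes. The 3 were LINC00461 (-3.76), SOX2-OT (-3.51) and PANTR1 (-3.32).

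The genes on either side also differed in length, which the rule did not use. The median transcript length was 4530 bases for higher genes, 2880 for lower genes and 3280 for all tested genes that matched the annotation. Over 10 bins of length, the median log2 fold change was -0.35 in the shortest bin, with 40 genes higher and 255 lower, and 0.33 in the longest, with 207 higher and 140 lower. Libraries of the same fraction differed with length too: Spearman's rho between a gene's deviation from its fraction's mean and its length, across 13194 genes that are not independent replicates, was -0.31, -0.25 and 0.51 in GFP-positive and -0.61, 0.29 and 0.52 in GFP-negative replicates 1 to 3. The part of length in the sort difference was not tested. Long noncoding RNAs made up 6.35% of higher, 4.1% of lower and 5.16% of all matched genes.

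The series also holds 6 libraries of cultures given cis-chlordane, labelled 10 µM although the study's methods state a higher dose, for 16 hours and sorted in the same way. In these, 1478 of 16226 genes were higher (9.11%) and 2301 lower (14.2%) in GFP-positive cells. Of the 1262 genes higher in controls 770 (61.0%), and of the 2371 lower genes 1600 (67.5%), were called in the same direction in treated cultures, while 7 and 6 were called in the opposite one. The sort difference itself depended on treatment for 1264 of 16226 genes at an adjusted p under 0.05 (7.79%, test of the interaction with a block for each culture). That count was 355 without the block and 331, 515 and 425 with replicate 1, 2 or 3 left out. ISL1 did not pass that test, at 8.01, 15.3 and 12.6 CPM in treated GFP-positive cells and 0.389, 0.691 and 0.566 CPM in treated GFP-negative cells (difference of the log2 fold changes -0.24, SE 0.27, adjusted p = 0.63). CHAT (-0.23, SE 0.42), SLC18A3 (-0.32, SE 0.25) and SOX2 (-0.11, SE 0.21) did not pass either. MNX1 (-1.52, SE 0.28, adjusted p = 0.0049) and MKI67 (1.34, SE 0.27, adjusted p = 0.0095) passed, with a smaller sort difference in treated cultures, and both lost that call without replicate 1 (adjusted p = 0.064 and 0.077).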

How the data were processed

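The authors deposited 1 table of raw read counts per gene symbol for all 12 libraries, unnormalised, with no pooling. Libraries were made from messenger RNA with a stranded kit, and the submitters' processing notes name HISAT2 and featureCounts with hg38, while versions and the strand setting of the counting are not given in the sources used here. Overlapping and antisense genes may therefore share reads, and so may near-identical copies such as the alpha globins.

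Groups were taken from the labels. The rule that named the members, the gene lists and the tests were chosen with earlier results of these data known. Genes were kept by edgeR's filterByExpr (minimum count 10, minimum total 15) and scaled by TMM, and differences were tested with edgeR 4.0.16 (R 4.3.3) by the quasi-likelihood test with the replicate as a block. P-values were Benjamini-Hochberg adjusted over all 15404 genes, and a gene was called higher or lower at an adjusted p under 0.05 and 2-fold or more. An exact permutation test of 3 against 3 libraries cannot go below 0.1. The replicate pairs the sorted fractions of a culture: same-numbered libraries correlated in their deviations from the fraction means at 0.345, 0.09 and 0.291, and each correlated best with its own number.

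Tested on simulated data for this comparison, the fit on 15142 genes recovered 86 of 100 genes changed by 1.5 on the log2 scale and 98 of 100 changed by 3, with 14 false calls. Without the block it recovered 67 and 96 with 0 false calls, and DESeq2, on 15404 genes, 81 and 96 with 9. By adjusted p under 0.05 with no limit on the fold change, unchanged genes that passed numbered 28 with the block, 0 without it and 20 with DESeq2. Depth ranged from 23414935 to 38347050 counts, and 8 higher and 49 lower genes had 3 counts or fewer in every library of the lower fraction, where a fitted fold is not a bound. Alternatives were DESeq2 1.42.0, other scalings and filters, no block, all 12 libraries, a test against 2-fold (glmTreat) and each replicate left out. Choosing the largest changes again without replicate 3 was added after the data were seen.

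The genes named were the 6 markers, the 10 largest changes each way (mean of at least 5 CPM, same direction in 3 pairs, no overlap), up to 5 called members of each of 50 lists each way (mean of at least 1 CPM), any member of the motor neuron, branchial, cholinergic, floor plate, interneuron, transmitter and blood lists, and the 5 most abundant called genes per kilobase each way. The other 40 of the 217 genes named were chosen after their values were seen or without regard to them, for a sequence or as a defining marker: ANG, AQP4, BUB3, CCNB2, DBX1, DCN, ERBB4, EVA1B, FOS, GFAP, GINS2, GJA4, HHIP, HMGA2, HOXA10, HOXB3, HOXC10, HOXD10, HTR1D, L1TD1, MOG, MYOCD, NANOG, NID2, NKX6-1, NOTCH1, PAX7, PCNA, PLK1, POSTN, POU5F1, PRRX1, RSPO2, SOX10, SOX3, TDGF1, TFPI2, TTYH1, TUBB3 and VEPH1. Positions and transcript lengths are from GENCODE on hg38 (25490 of 28278 symbols matched), and promoters from RefSeq on GRCh38.p14 (11721 of the 15404 genes matched). Some genes that the rule covers are not reported here. Summaries and figures used Python 3.11.15, pandas 2.3.3 and matplotlib 3.10.9.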

Additional observations from a re-analysis of the deposited data

Results flagged for a closer look

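For 2 of the 6 markers, the sort difference itself differed between treated and control cultures by a test of the interaction (edgeR with a block for each culture, over 16226 genes). MNX1 was at 5.16, 5.24 and 3.15 CPM in treated GFP-positive cells and at 5.14, 4.73 and 4.57 CPM in treated GFP-negative cells, so that the fractions overlapped there, while they did not in controls. Its log2 fold change was -0.12 (SE 0.2) in treated cultures, in a fit of all 12 libraries. In control cultures it was 1.29, in the fit of the 6 control libraries. The difference also came from the fit of all 12 libraries, so it is not the subtraction of these values. It was -1.52 (SE 0.28, adjusted p = 0.0049). That adjusted p was 0.041 without the block, 0.0011 with DESeq2, 0.037 and 0.032 without replicate 2 or 3, and 0.064 without replicate 1.

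MKI67 was at 8.76, 8.71 and 7.63 CPM in treated GFP-positive cells and at 26.8, 47.9 and 21.5 CPM in treated GFP-negative cells, without overlap. By the same fits as for MNX1, the log2 fold change was -1.86 (SE 0.2) in treated and -3.30 in control cultures. The difference, from the fit of all 12 libraries, was 1.34 (SE 0.27, adjusted p = 0.0095). Its adjusted p was 3.6e-05 with DESeq2 and 0.0081 and 0.023 without replicate 2 or 3, but 0.13 without the block and 0.077 without replicate 1. The cause of these differences was not tested.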

How the results depend on the processing

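The counts of 1262 higher and 2371 lower genes stayed within 1.5 times under DESeq2 (1242 and 2229), other scalings and filters, all 12 libraries and each replicate left out. A test against 2-fold in place of a limit on the fold change gave 430 higher and 1516 lower genes. Without the replicate block the counts were 1151 and 2355, and with each of the 6 libraries left out of that fit they ranged from 976 to 1617 and from 2155 to 2493. The count of genes whose sort difference depended on treatment was 1264, against 355 without the replicate block, 331 to 515 with a replicate left out, and 1555 with DESeq2. In that comparison SLC18A3 ranged from -0.48 to 0.01 and SOX2 from -0.2 to 0.02 with a replicate left out, the sign turning without replicate 3, and neither was past the threshold. Among 200 tested genes named in the text and 3364 pairs of gene and alternative, 3198 kept their direction and side of the threshold, 150 lost a call, 16 gained one and 0 turned. Without the block, calls were lost for ESRRG, LSS, ONECUT1, SNCG and TTYH1 and gained for HBA2 and HBB, and no other call of a named gene changed. Leaving out replicate 1 ended the calls of ANG (-1.43), ESRRG (0.8), HOXB1, LHX3, LSS (0.9), ONECUT1 (0.53), RPL35 (-0.98), RPL8 (-0.9) and SLC6A5 (-1.13). Leaving out replicate 2 ended those of ANG, CHRM4 (-1.23), ERBB4 (-1.39), HHIP (-0.93), L1TD1 (-1.95), NEUROD1, SLC6A5 and SNCG (0.92), and those ended without replicate 3 stand beside their results. DESeq2 did not call 9 named genes that edgeR called, HBA1 (adjusted p = 0.43), LSP1 (0.095), MYO1F (0.15), ANG (0.19), L1TD1 (0.088), ONECUT1 (0.095), RSPO2 (0.099), SLC6A5 (0.25) and HHIP (-0.97, under 2-fold). The medians of 5 lists near 0 or of few genes turned sign under some alternatives: glutamate genes (-0.9 from 1 gene with at least 10 counts in every library), retinoic acid genes (-0.01 without replicate 1), neurotrophic factor receptors (-0.02 without replicate 1), OXPHOS genes (0.02 without the block and GFP-negative replicate 1) and genes linked to amyotrophic lateral sclerosis (as low as -0.04). The cause of these changes was not tested. With 3 cultures of 1 line, no value extends past it.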
